A study of Homo sapiens with 8 samples.

Results

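The 10q11.2 segment is a stretch of the long arm of chromosome 10 that is rich in segmental duplications. It was taken here as every window of the deposited table that starts from 45000001 to 52000000 on chromosome 10 of the hg19 build, and it held 977 of 256141 windows. The windows are 150 bp wide and start every 50 bp, so neighbours share fragments. Neighbouring windows up to 100 bp apart were therefore merged into regions, which gave 147 of the table's 35741. The 977 windows were chosen by position, in a stretch proposed with earlier results of these data in view, so its levels and its counts of changed windows are descriptions, and a high share of changed windows supports nothing further.

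Segmental duplications are long blocks of DNA that occur in several near-identical copies, and the pericentromeric long arm of chromosome 10 is known for them. Short reads from such copies cannot always be placed in only one of them, and the number of copies can differ between genomes. Genes known from this band include ALOX5, which makes the precursor of leukotrienes, MAPK8, which encodes the stress kinase JNK1, ERCC6, a DNA repair factor that acts on stalled transcription, and NCOA4, a receptor for the breakdown of ferritin. No hg19 annotation or genome was used here, so no window is assigned to a gene, no sequence is printed, and regions are named by their coordinates.

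Open chromatin was measured by FAIRE-seq, which fixes cells with formaldehyde, extracts them with phenol-chloroform and sequences what is left in the water layer, enriched for stretches with few nucleosomes. The cells were AIRE-Tet cells, made from Tet-On Advanced HEK293, an embryonic kidney line, so that human AIRE can be switched on by doxycycline. AIRE, the autoimmune regulator, drives expression of tissue-restricted genes in the thymus. Etoposide traps topoisomerase II on DNA and leaves breaks. The 4 groups had 2 biological replicates each. DoxEtop cells were given 1.5 µM doxycycline and, after 24 h of induction, 2 µM etoposide for 24 h. Dox cells were given 1.5 µM doxycycline alone, Etop cells 2 µM etoposide for 24 h alone, and Control cells neither drug. The length of induction in Dox cells is not given here. All groups carried the inducible transgene and grew in medium with tetracycline-negative serum and G418. Doxycycline in cells without the transgene was not analysed here, so the drug and AIRE cannot be told apart, and the kidney line is not the thymic cell in which AIRE normally acts.

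The column totals over all windows were 4489871 to 5305079 counts in the 4 AIRE-induced libraries and 4568818 to 8275911 counts in the 4 libraries without induction. Because windows overlap, these totals can count a fragment more than once and are not depths. Levels are given as CPM, the window's share of its library's column total on the usual CPM scale, after TMM scaling. In the segment itself the libraries held 14822 and 16284 counts in DoxEtop, 17991 and 15938 in Dox cells, 25007 and 17830 in Etop, and 29161 and 30472 in Control.

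The windows were spread very unevenly over the segment. Its 1 Mb pieces held 92, 316, 386, 26, 62, 65 and 30 windows from the first to the seventh, in 15, 29, 74, 3, 12, 12 and 3 regions. The median over the 2305 pieces of 1 Mb that held any window was 52. The third piece, from 47000001 to 48000000, ranked 126th of these by its number of windows and the second piece 185th, whereas the fourth ranked 1583rd. Long stretches held no window at all. The longest ran 1032.4 kb, from 48427250 to 49459701, and others ran 782.6 kb from 46168650 to 46951251 and 698.0 kb from 47656400 to 48354451. These empty stretches give no level, since the lowest summed count that the table lists over the 8 libraries was 111.

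Most of the segment's windows lay in 1 dense stretch. When regions at most 10 kb apart were joined, 97 regions with 655 windows formed a stretch from 46951251 to 47137500, which is 186.2 kb long. This stretch covered 2.66% of the segment and held 655 of its 977 windows and 66.0% of its regions. The next largest joined stretch in the segment had 4 regions, and 23 of the 36 stretches were a single region. Joining at 20 kb gave the same ends. Joining at 5 kb split it, and the largest part then ran from 46990951 to 47069050 with 46 regions. The joining distance was chosen after seeing the data.

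Dense stretches of this kind were rare in the table outside chromosome 19. Of 17520 joined stretches, 16 held 50 or more regions, and 15 of these were on chromosome 19. The remaining one was the stretch on chromosome 10, which ranked 9th by its number of regions. It held 3.52 windows per kb, within the range of 2.52 to 5.58 in the others.

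The dense stretch was close to the table in its median level, at 3.34 against 3.42 CPM per window, and its regions were slightly narrower at the median. Its regions had a median width of 300 bp, against 400 bp in the rest of the segment and 350 bp over the whole table, and 50 of the 97 were 300 bp wide or less. All 6 regions of the segment wider than 1000 bp lay in this stretch. The summed count over the 8 libraries had a median of 158 per window in the stretch, 169 in the rest of the segment and 160 over the table. The highest window of the stretch averaged 7.86 CPM, against 127.0 CPM for the highest window of the table.

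No window of the segment had the same 8 counts as a window more than 10 kb away or on another chromosome (0 of 977). Copies that share reads need not have equal counts in all 8 libraries, so this does not tell whether reads were shared. The sources used here do not say how reads that match several places were treated. Input libraries were not analysed here, so more copies of the DNA and more open chromatin cannot be told apart in the levels.

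The segment as a whole took 0.301 ± 0.0311% of the column total in DoxEtop, 0.351 ± 0.00492% in Dox, 0.370 ± 0.0281% in Etop and 0.401 ± 0.0683% in Control (SD, n = 2 each). The single libraries were at 0.279% and 0.323% in DoxEtop, 0.348% and 0.355% in Dox cells, 0.351% and 0.390% in Etop, and 0.352% and 0.449% in Control. The arms overlapped, since Dox replicate 2 was above Etop replicate 1 and Control replicate 1. Control replicate 2 stood highest, and DoxEtop replicate 1 lowest.

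In the dense stretch the arms separated. Its windows summed to 1550 and 1940 CPM in DoxEtop and 2140 CPM in each Dox library, against 2490 and 2680 CPM in Etop and 2200 and 3270 CPM in Control. The 4 induced libraries averaged 1940 ± 280 CPM and the 4 others 2660 ± 452 CPM (SD, n = 4 each), a log2 ratio of the means of -0.455. All induced libraries were below all others, with Control replicate 1 only just above both Dox libraries.

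In the rest of the segment the sums were 1220 and 1280 CPM in DoxEtop and 1290 and 1380 CPM in Dox, against 1100 and 1230 CPM in Etop and 1310 and 1300 CPM in Control. Here the arms overlapped, at 1290 ± 65.9 CPM with induction and 1230 ± 95.3 CPM without it (SD, n = 4 each). No p-value is given for these sums, because the segment was chosen with results known. The dense stretch took 55.9 to 62.5% of the segment's counts in the induced libraries and 62.7 to 71.6% in the others.

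**Figure D1:**
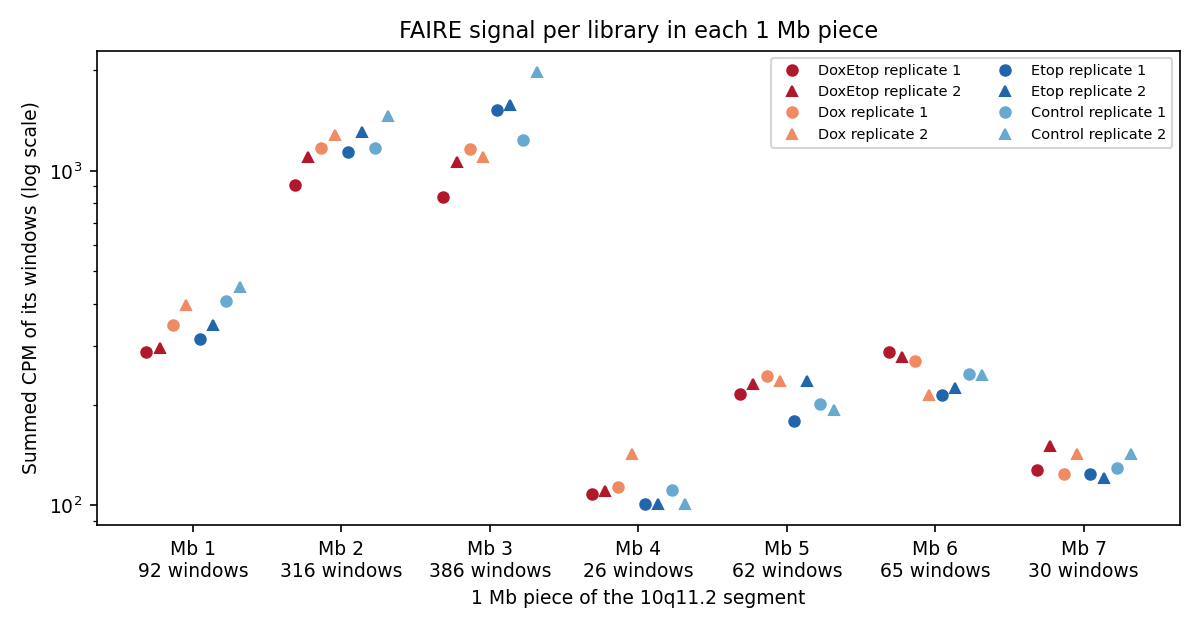
Summed CPM of all windows (log scale) in each 1 Mb piece of the segment, 1 point per library, circles for replicate 1 and triangles for replicate 2, with DoxEtop and Dox left of Etop and Control. In the third piece the induced libraries lie at 835 to 1160 CPM, below the others at 1240 to 1970 CPM, and in each of the other 6 pieces the 2 arms overlap.

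By 1 Mb piece, the third piece showed the clearest separation. Its windows summed to 835 and 1060 CPM in DoxEtop and 1160 and 1100 CPM in Dox, against 1520 and 1570 CPM in Etop and 1240 and 1970 CPM in Control, a log2 ratio of the arm means of -0.601. The second piece had 906 and 1100 CPM in DoxEtop and 1170 and 1280 CPM in Dox, against 1140 and 1310 CPM in Etop and 1170 and 1460 CPM in Control, so that the arms overlapped. The first piece averaged 332 ± 50.3 CPM with induction and 380 ± 61.0 CPM without it (SD, n = 4 each), also with overlap. In the 4 pieces from 48000001 on, the induced libraries had the higher mean, at 118 ± 15.8 against 104 ± 4.74 CPM, 231 ± 12.0 against 202 ± 24.0 CPM, 262 ± 32.5 against 232 ± 16.5 CPM and 136 ± 12.3 against 129 ± 9.59 CPM (SD, n = 4 each).

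The comparison of AIRE-induced with uninduced cells, with etoposide as a second factor, called 132 of the 977 windows, 117 lower and 15 higher in the induced libraries. Windows were tested by quasi-likelihood in edgeR, with p-values adjusted by Benjamini-Hochberg over all 256141 windows, at an adjusted p under 0.05. Of all windows, 7.44% passed, with 6.17% lower and 1.27% higher. In the segment 13.5% passed, with 12.0% lower and 1.54% higher. Because the segment was proposed from these data, nothing is read from the higher share. The call depended on the test. Limma-voom called 2 windows, both higher, and 0.335% of all windows, with a median of -0.456 in the dense stretch against -0.485 by edgeR. Loess offsets, which level the fold change over the range of abundance, left 83, of which 66 were lower and 17 higher, and 5.68% of all windows. Among the 82 windows that averaged at least 5 CPM, 14 were called, 8 lower and 6 higher, where 7.8% of all such windows were called. Their median log2 fold change was 0.059, against -0.234 over all windows of the segment. In the dense stretch 104 of 655 windows were lower and 3 were higher. Among the 322 windows outside it, 13 were lower and 12 higher.

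The median log2 fold change of AIRE-induced over uninduced libraries was -0.485 in the dense stretch, 0.108 in the rest of the segment and 0.036 over all windows. The count of called windows moved when single libraries were left out, and so did the share over all windows. It was 47 without Control replicate 2, 64 without DoxEtop replicate 1 and 86 without Dox replicate 2. Lower windows outnumbered higher ones each time. Of all windows, 2.87%, 3.51% and 4.54% were called in the same order, against 7.44% with all libraries. The median in the dense stretch ranged from -0.650 to -0.370 when single libraries were left out. Among the 28 windows of the stretch that averaged at least 5 CPM it was -0.037, with 4 called, all lower. The 4 induced libraries were all below the 4 others at 104 windows of the segment (10.6%) and all above them at 23 (2.35%), where 7.49% and 4.98% of all windows had such a separation.

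**Figure D2:**
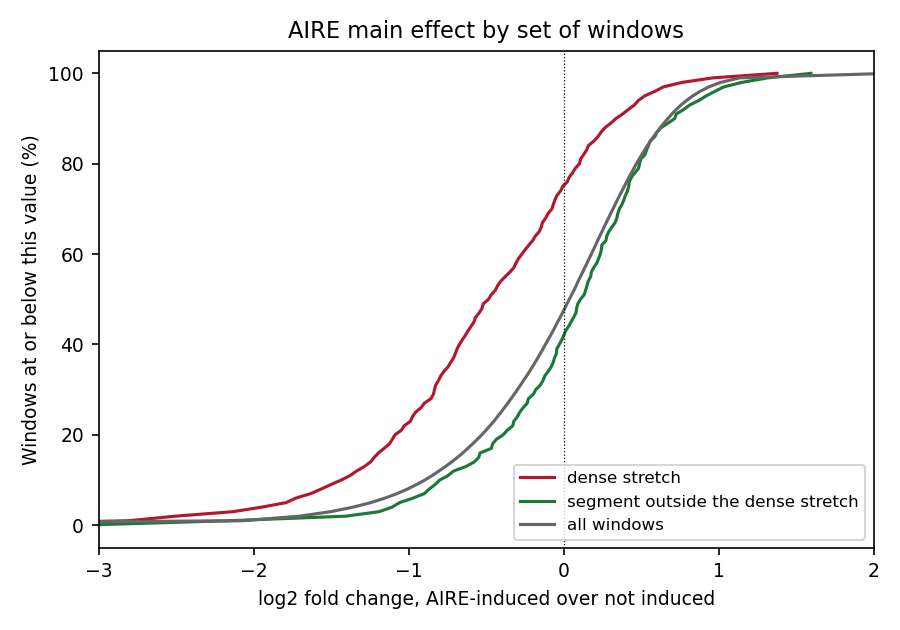
Cumulative share of windows (vertical axis, percent) by log2 fold change of AIRE-induced over uninduced libraries (horizontal axis), for the dense stretch, the rest of the segment and all windows. The curve of the dense stretch lies to the left, with its median at -0.485, while the rest of the segment has its median at 0.108, close to the 0.036 of all windows.

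Tested as merged regions with Simes' p adjusted over 35741 regions, 39 of the segment's 147 regions were called. In 38 the window with the smallest p was lower with induction and in 1 it was higher, 26.5% of the segment's regions, where 14.3% of all regions were called, 12.9% lower and 1.42% higher. Of the 38 regions lower with induction, 32 lay in the dense stretch and 6 outside it. Their log2 fold changes ran from -4.20 to -1.05 with a median of -1.81, and 15 of the 38 were 300 bp wide or less. At these windows DoxEtop replicate 1 was the lowest library in 20 of the 39 regions, and Control replicate 2 was the highest in 25. Without Control replicate 2 the count was 11 regions and without DoxEtop replicate 1 it was 22, while it was 54 without Control replicate 1. Of all windows, 2.87%, 3.51% and 9.26% were called in the same order. Limma-voom called 0 regions and loess offsets 21, and among regions with a window of at least 5 CPM on average 6 of 24 were called, 2 lower and 4 higher. These settings called 0.335%, 5.68% and 7.8% of all windows they tested. Shares over all regions are not given here for any of these settings.

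Selection into the table may touch these calls, but how windows were chosen is not given in the sources used here. With the levels of the arms exchanged, the window with the smallest p would have stayed under a summed count of 129, the most frequent sum in the table, in 20 of the 39 called regions and in 8 of the 10 with the lowest fold change. Such a window may be listed only because it was high without induction and then had to be lower with it. Values of these 8 are therefore given as descriptions, with no p-value.

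The smallest adjusted p of the segment was found in the region from 46983701 to 46984050. The window at 46983851 had 4 and 5 counts in DoxEtop and 8 and 6 in Dox, against 73 and 31 in Etop and 26 and 82 in Control. Its log2 fold change was -2.81 (SE 0.388, adjusted p = 1.36e-06 by edgeR). The libraries without induction differed much among themselves, at 3.13 CPM in Control replicate 1 and 12.3 CPM in Control replicate 2, and still did not overlap the induced ones.

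The region from 47080851 to 47081350 was the other of the 10 that would have reached 129 with the arms exchanged. At its window with the smallest p the arms overlapped. This window, at 47081101, had 3 and 23 counts in DoxEtop and 3 and 2 in Dox, against 49 and 26 in Etop and 28 and 104 in Control. DoxEtop replicate 2, at 4.55 CPM, was above Control replicate 1 at 3.37 CPM, while the other 3 induced libraries were at 0.441 to 0.572 CPM. The log2 fold change at 47081101 was -2.39 (SE 0.437, adjusted p = 0.000144 by edgeR). At the region's strongest window, 47081001, the arms did not overlap (log2 fold change -1.6, SE 0.315, edgeR adjusted p = 0.000396).

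Of the 10 lowest regions, 8 would have stayed under 129 with the arms exchanged. Among these 8, the lowest log2 fold change lay in the dense stretch, in the region from 47003901 to 47004400. Its window at 47004101 had 0 and 2 counts in DoxEtop and 1 and 2 in Dox, against 62 and 20 in Etop and 18 and 31 in Control. Every induced library was thus nearly empty and every other library was well covered. The level was 0.257 ± 0.203 CPM with induction and 5.02 ± 2.81 CPM without it (SD, n = 4 each), with a log2 fold change of -4.20 (SE 0.583). With the arms exchanged its sum of 136 counts would have been 108, below the lowest sum listed, 111. Pooled over libraries it was 20.0-fold lower, with a 95% counting interval of 8.34 to 62.5 that covers counting error only. With loess offsets, which are fitted to these same counts by abundance, the log2 fold change of this window was 0.101 (SE 0.743). Its raw counts were lower in every induced library than in every other, and the cause of this reversal was not tested.

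Log2 fold changes near -3 were found at 2 more regions of the dense stretch. The region from 47110201 to 47110400 had 2 and 2 counts in DoxEtop and 2 and 5 in Dox at the window at 47110251, against 54 and 18 in Etop and 18 and 38 in Control, a log2 fold change of -3.09 (SE 0.508). In the region from 47047501 to 47047950, the window at 47047801 had 1 and 5 counts in DoxEtop and 4 and 2 in Dox, against 47 and 15 in Etop and 27 and 48 in Control, a log2 fold change of -3.07 (SE 0.488). The groups did not overlap at either window. With the arms exchanged their sums would have been 114 and 119.

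A further 3 regions of the dense stretch were among the 10 with the lowest fold change. They start at 46974301, 47104501 and 46998151, with log2 fold changes of -2.30, -2.21 and -2.12. Induced libraries had 1 to 9, 4 to 6 and 4 to 7 counts there, against 20 to 44, 10 to 49 and 13 to 42 counts without induction. In CPM, Control replicate 1 was the lowest of the uninduced libraries at all 3, at 2.53, 1.2 and 1.57 CPM. It had 10 and 13 counts at the last 2 of them. Called regions with the smallest decreases in the dense stretch, starting at 46994401, 46995951, 47007251, 47014251, 47017001 and 47033801, had log2 fold changes of -1.42, -1.35, -1.43, -1.29, -1.35 and -1.41.

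Outside the dense stretch, 2 regions were lower by like amounts. At window 45471101 of the region 45471101 to 45471500, the counts were 0 and 6 in DoxEtop and 4 and 1 in Dox, against 31 and 26 in Etop and 20 and 49 in Control, a log2 fold change of -3.13 (SE 0.526). The region from 50615701 to 50615950 had 1 and 7 counts in DoxEtop and 5 and 1 in Dox at its first window, against 42 and 18 in Etop and 22 and 42 in Control, a log2 fold change of -2.74 (SE 0.493). The arms did not overlap at either window. With loess offsets the log2 fold change at 45471101 was 0.174 (SE 0.563).

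The other 4 regions called lower outside the stretch had smaller fold changes. The region from 51564951 to 51565700 had 16 and 20 counts in DoxEtop and 11 and 18 in Dox at 51565101, against 48 and 26 in Etop and 65 and 42 in Control, a log2 fold change of -1.05 (SE 0.302). Regions starting at 45474151 and 47599901 had -1.29 and -1.31, and at the second of these no single window passed. The log2 fold change of the called region starting at 51488751 was -1.80, with 3 to 8 counts in the induced libraries and 10 to 48 in the others.

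A single region of the segment rose as a region, that from 49864101 to 49864950. Its window at 49864251 had 27 and 39 counts in DoxEtop and 21 and 21 in Dox, against 15 and 13 in Etop and 6 and 11 in Control. All induced libraries were above all others. The level was 5.35 ± 1.63 CPM with induction and 1.84 ± 0.895 CPM without it (SD, n = 4 each), and the log2 fold change was 1.59 (SE 0.372, adjusted p = 0.00315 by edgeR). No region of the segment was called higher without Dox replicate 2, without DoxEtop replicate 2 or by limma-voom. A window at 48355001 was also called higher, with a log2 fold change of 0.97 and an edgeR adjusted p of 0.0169, but its region from 48354451 to 48355300 was not (Simes adjusted p = 0.0649).

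**Figure D3:**
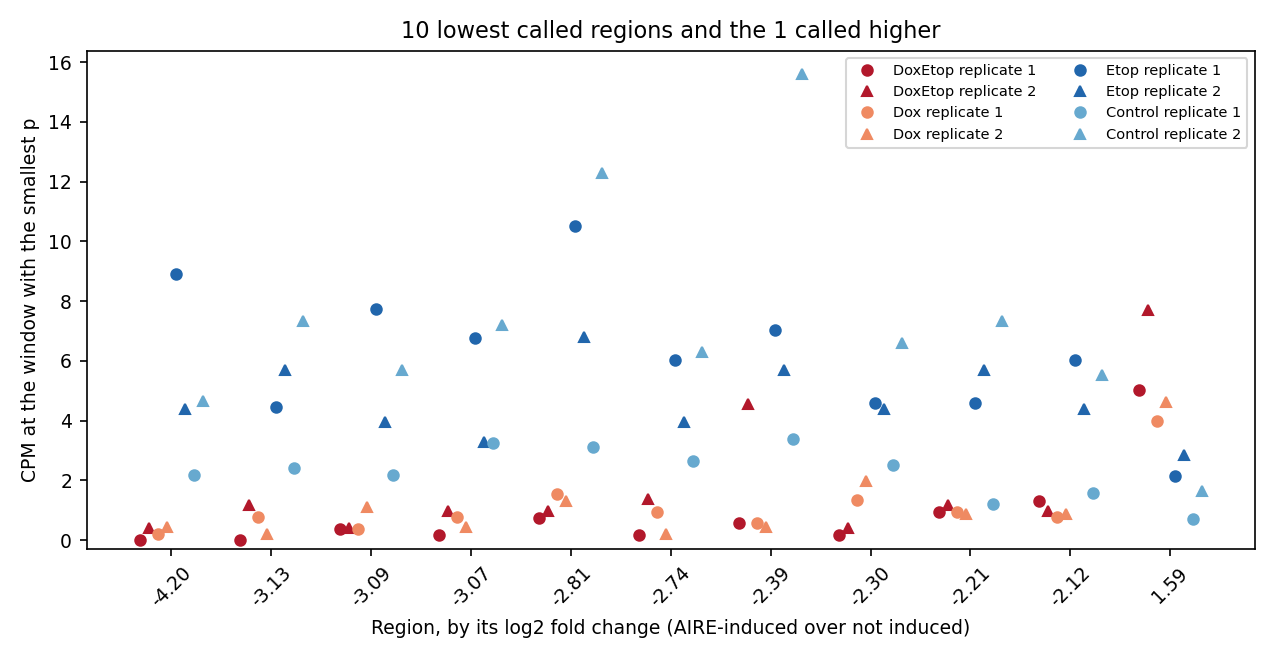
CPM per library at the window with the smallest p in the 10 called regions with the lowest log2 fold change and in the 1 called region that was higher, ordered by log2 fold change of AIRE-induced over uninduced libraries. Induced libraries lie below the uninduced ones in the 10 regions, except DoxEtop replicate 2 at 4.55 CPM in the region with -2.39, and above them in the region with 1.59.

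The highest windows of 6 of the 7 pieces did not pass the test. In the sixth piece window 50747101 of the region 50746651 to 50747400 had the highest mean of the segment at 9.37 CPM, with 52 and 68 counts in DoxEtop and 50 and 37 in Dox, against 68 and 50 in Etop and 64 and 38 in Control. The induced and the other libraries overlapped there, with a log2 fold change of 0.27 (SE 0.227, adjusted p = 0.491 by edgeR). The highest windows of the other pieces but the third and the fourth, starting at 45374201, 46168201, 49514401 and 51572201, had log2 fold changes of -0.29, 0.36, 0.00 and 0.42 with edgeR adjusted p-values of 0.301 to 0.995.

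In the third piece, the highest window started at 47108501 in the dense stretch. It had 29 and 34 counts in DoxEtop and 36 and 27 in Dox, against 55 and 55 in Etop and 60 and 72 in Control. The arms did not overlap, but the fold change of -0.59 (SE 0.246) did not pass (edgeR adjusted p = 0.136). The same region, from 47107801 to 47109250, was called at its edge, where the window at 47107901 had a log2 fold change of -1.97 and an edgeR adjusted p of 0.000622.

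The widest regions, all in the dense stretch, did not pass the test at their strongest windows, but each held called windows elsewhere. The widest region of the segment ran 2650 bp, from 46991451 to 46994100. Its strongest window, starting at 46993251, had 43 and 34 counts in DoxEtop and 24 and 21 in Dox, against 29 and 25 in Etop and 44 and 32 in Control, a log2 fold change of 0.26 (edgeR adjusted p = 0.622). Near its start, the window at 46991601 had 2 and 10 counts in DoxEtop and 7 and 12 in Dox, against 37 and 16 in Etop and 42 and 48 in Control, with a log2 fold change of -1.76 (edgeR adjusted p = 0.0021). The regions starting at 46964501 (1900 bp) and 46970551 (1750 bp) had log2 fold changes of 0.33 and 0.32 at their strongest windows, and of -1.54 and -1.67 at called windows 46965901 and 46972101. Another region of 1750 bp, from 46998751 to 47000500, had 0.10 at its strongest window (edgeR adjusted p = 0.881). Its window 46999151 was called higher, with 25 and 21 counts in DoxEtop and 30 and 42 in Dox, against 10 and 13 in Etop and 31 and 11 in Control (log2 fold change 1.29, edgeR adjusted p = 0.0115). These 3 did not pass as regions (Simes adjusted p = 0.057, 0.0654 and 0.0756).

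By region width, the median log2 fold change in the dense stretch was -0.837 in the 139 windows of regions up to 300 bp, -0.543 in 142 windows of regions up to 500 bp, -0.519 in 185 of regions up to 1000 bp, -0.040 in the 138 windows of the other regions wider than 1000 bp, and 0.141 in the 51 windows of the widest region. In the table outside the segment the medians in the same order were -0.227, -0.059, 0.093, 0.149 and 0.088. The share of windows called lower in regions up to 300 bp was 20.1% in the dense stretch and 9.90% outside the segment. A window that was listed only through its counts in the uninduced libraries had to be lower with induction. Among windows that reached a summed count of 129 both as deposited and with the levels of the arms exchanged, the median was -0.342 in the dense stretch and 0.064 over the table. Whether such a selection has a part in the width pattern was not tested.

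Cut into 4 parts of equal length, the dense stretch had median log2 fold changes of -0.188, -0.445, -0.687 and -0.691 from its start to its end. The parts held 261, 169, 108 and 117 windows, of which 30, 30, 18 and 26 were called lower and 1, 2, 0 and 0 higher. Of all windows, 6.17% were called lower and 1.27% higher. The summed level was 869 ± 139 CPM with induction and 1050 ± 148 CPM without it in the first part, and 317 ± 41.3 CPM against 517 ± 97.5 CPM in the last (SD, n = 4 each). Windows of the first part lay in regions of 1250 bp at the median, against 450 to 550 bp in the other parts. In the first part Dox replicate 2, at 1010 CPM, was above Etop replicate 1 at 931 CPM and Control replicate 1 at 948 CPM. In the last part the arms were apart, at 273 to 367 CPM with induction and 420 to 649 CPM without it.

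**Figure D4:**
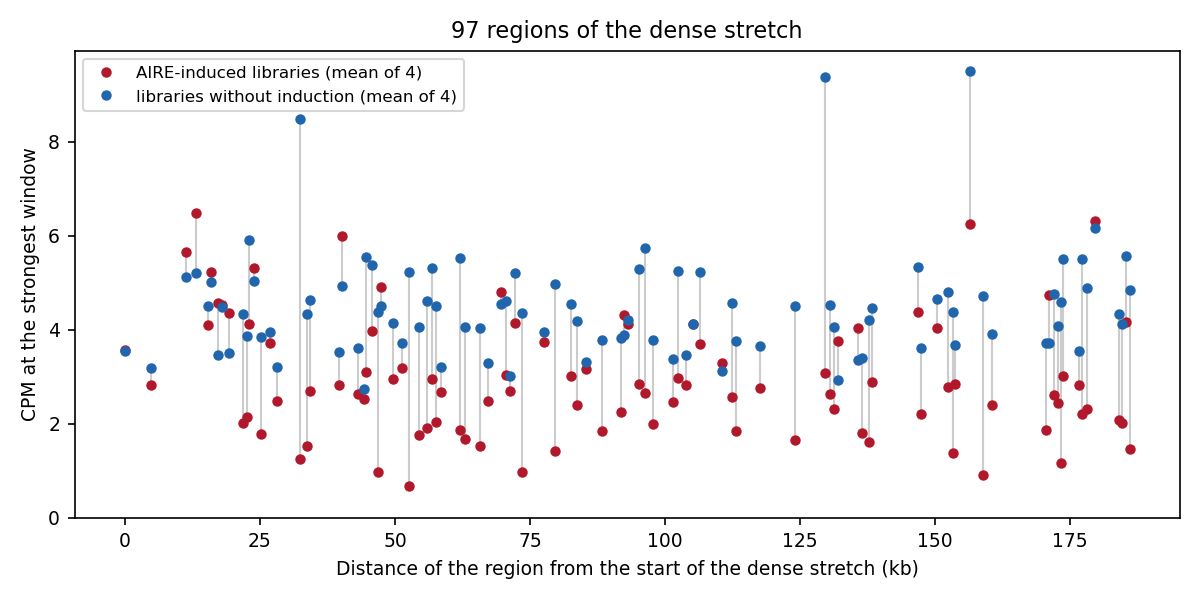
Mean CPM of the 4 AIRE-induced and of the 4 uninduced libraries at the strongest window of each of the 97 regions in the dense stretch (vertical axis), by distance from the start of the stretch in kb, with grey lines joining the means of a region. The uninduced means lie above the induced ones in most regions, by most at the regions near 32, 130 and 53 kb, and the widest region, near 40.2 kb, has means of 5.99 CPM with induction and 4.93 CPM without it.

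Set beside the 15 stretches of 50 or more regions on chromosome 19, the dense stretch had the lowest median log2 fold change, -0.485 against -0.390 to 0.010, with no test of the difference. Its share of windows called lower, 15.9%, was within their range of 3.18 to 16.5%. A stretch of chromosome 19 from 44029601 to 44289750 with 95 regions had the same count of 104 of 655 windows called lower and a median of -0.390.

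**Figure D5:**
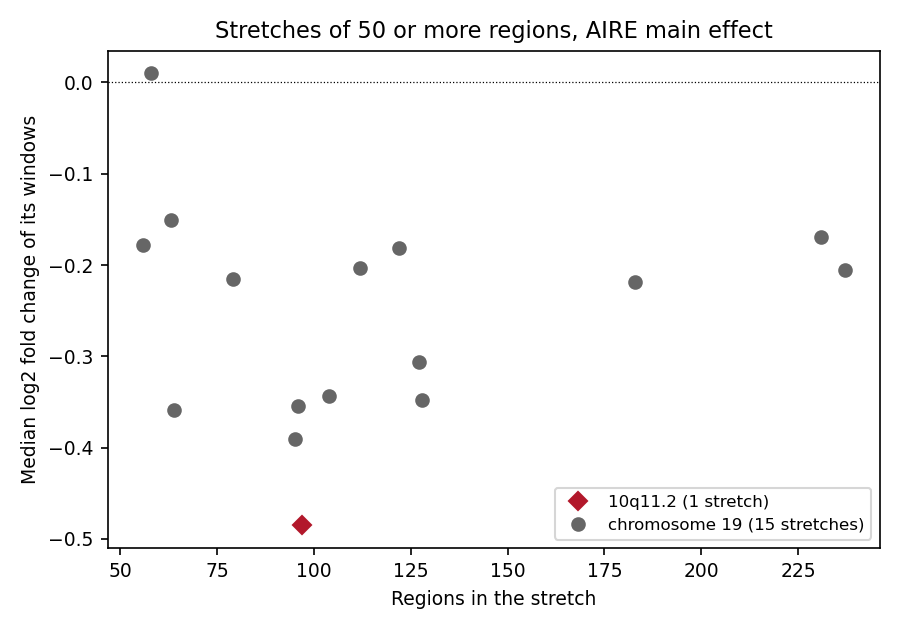
Median log2 fold change of AIRE-induced over uninduced libraries (vertical axis) by number of regions (horizontal axis) for the 16 joined stretches of 50 or more regions. The diamond is the stretch on chromosome 10, at 97 regions and -0.485, and the 15 circles are stretches on chromosome 19, between -0.390 and 0.010.

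AIRE induction without etoposide (Dox against Control) called 16 windows of the segment, all lower, in 7 regions, 1.64% of the segment where 0.864% of all windows were called, 0.848% lower and 0.0156% higher. Of these, 14 lay in the dense stretch. The window at 47081101 held 3 and 2 counts in Dox cells, against 28 and 104 in Control, a log2 fold change of -4.14 (SE 0.697, adjusted p = 0.00124 by edgeR). The window at 47004101 held 1 and 2 counts in Dox cells, against 18 and 31 in Control. Pooled counts were 10.7-fold lower there, between 3.44 and 53.5 by the 95% counting interval, which covers counting error only. With the arms exchanged this window's sum would have been 108, below the lowest sum listed, 111, so nothing is read from the interval. The median over the dense stretch was -0.357. With loess offsets the log2 fold change at 47004101 was 0.797 (SE 1.02). DESeq2 called 1 window, limma-voom 0 and the fit after loess offsets 9. For these settings and those that follow, shares over all windows are not given here. A shift in the count therefore cannot be set against the whole table. Windows selected alike in both arms held 10 calls and those of at least 5 CPM held 3, and the count rested on single libraries. It was 0 without Control replicate 2, 0 without Dox replicate 1 and 0 without Dox replicate 2, and it was 37, 27 and 26 without Control replicate 1, Etop replicate 1 and Etop replicate 2.

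AIRE induction in etoposide-treated cells (DoxEtop against Etop) called 45 windows, 42 lower in 20 regions and 3 higher, 4.61% of the segment where 2.88% of all windows were called, 2.43% lower and 0.45% higher. The dense stretch held 38, all lower. The window at 47004101 had 0 and 2 counts in DoxEtop against 62 and 20 in Etop, pooled 37.0-fold lower, between 9.93 and 311 by the 95% counting interval. This was a log2 fold change of -4.98 (SE 0.832). Windows at 47110251 and 46974651 had log2 fold changes of -3.88 and -3.87, with 1 to 2 counts in each DoxEtop library against 18 to 54 in Etop. At 47089651, with 2 and 2 counts in DoxEtop against 30 and 17 in Etop, the log2 fold change was -3.32. All 4 windows would have stayed under 129 with the arms exchanged, and nothing is read from the interval, which covers counting error only. DESeq2 called 15 windows, limma-voom 0 and the fit after loess offsets 19. Shares over all windows are not given here for these settings or those that follow. Shifts in the count therefore cannot be set against the whole table. Windows selected alike in both arms held 23 calls, 20 lower and 3 higher, and those of at least 5 CPM held 2. Without DoxEtop replicate 1 the count was 0, without Etop replicate 1 it was 13, and without Etop replicate 2 it was 81.

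These 2 comparisons share no library. Of the 16 windows lower in Dox against Control, 9 (56.2%) were also called lower in DoxEtop against Etop, and these were 21.4% of the 42 called there. All 16 had a log2 fold change below 0 in DoxEtop against Etop, where 74.0% of the dense stretch and 49.0% of all windows did. All 42 had one below 0 in Dox against Control, where 71.6% of the dense stretch and 48.7% of all windows did. How windows were chosen is not given in the sources used here. A selection on the summed count could favour such windows in both comparisons, which was not tested. Nothing is read from the overlap. The dense stretch had a median of -0.574 with etoposide and -0.357 without it. How long Dox cells were induced is not given here, so both comparisons may rest on unequal induction times. The test of the difference between both changes (the interaction) called 0 windows in the segment by edgeR, DESeq2 and limma-voom, with 50 of 977 at an unadjusted edgeR p under 0.05. Of all windows, 0.0% were called. The window with the smallest p for the interaction, at 46964551, had 8 and 9 counts in DoxEtop, Dox libraries 29 and 35, Etop libraries 29 and 19, and Control libraries 23 and 22 (edgeR adjusted p = 1.0).

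Etoposide showed no called change in the segment. With induction as a second factor, 0 of 977 windows were called by edgeR, DESeq2 and limma-voom (0.0% of all windows by edgeR), and 61 had an unadjusted edgeR p under 0.05, or 6.24% where 5.83% of all windows did. The median log2 fold change of etoposide-treated over other libraries was -0.188 in the segment and 0.000 over all windows. The window with the smallest p started at 47021151, where DoxEtop libraries had 15 and 11 counts and Etop libraries 16 and 15, against 34 and 38 counts in Dox libraries and 29 and 35 in Control. The libraries with and without etoposide did not overlap, but the edgeR adjusted p was 0.692. Etop against Control and DoxEtop against Dox also called 0 windows by all 3 tools (0.0% of all windows by edgeR), with 41 and 69 of 977 at an unadjusted edgeR p under 0.05. The smallest p for Etop against Control was at 46978051, with 5 and 8 counts in Etop against 30 and 31 in Control (edgeR adjusted p = 0.863). In Etop against Control, 2 windows were called lower without Etop replicate 2, which leaves a single Etop library.

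Regions nearest to the ends of the segment did not pass. The first region inside, from 45297501 to 45297800, had 12 and 7 counts in DoxEtop and 24 and 11 in Dox at 45297601, against 22 and 25 in Etop and 41 and 39 in Control (log2 fold change -0.87, edgeR adjusted p = 0.122). The last, from 51572101 to 51572700, had a log2 fold change of 0.52 at 51572301 (edgeR adjusted p = 0.219). The regions just outside, starting at 44881951 and 52177801, had 0.63 and 0.41 (edgeR adjusted p = 0.150 and 0.468).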

How the data were processed

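The submitters' processing notes list Trim Galore, Bowtie, Bowtie2 and the genome build hg19 and give no version or role. The authors' deposited table gives raw counts per 150 bp window, 1 column per library; per the labels, libraries were sequenced 2 times with paired 100 bp reads. How windows were chosen, fragments counted and multi-mapping or duplicate reads treated is not given in the sources used here.

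All 256141 windows were fitted with edgeR 4.0.16 in R 4.3.3 (TMM, filterByExpr, which removed 0 windows, glmQLFit and glmQLFTest, two-sided). Main effects came from an additive model with 5 residual degrees of freedom, and all other comparisons from 1 mean per group with 4. The common biological coefficient of variation was 26.4%. Replicates of a group differed by more than sampling noise (chi-square per degree of freedom 1.85 to 3.12). DESeq2 1.42.0, limma-voom 3.58.1, loess offsets and left-out libraries were alternatives. The procedure was tested on simulated counts, with a pass line for recovery that was lowered after the first run missed it.

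The members, lists and tests were chosen with earlier results of these data known. The dense stretch was noticed in a listing of the regions. The joining distance of 10 kb (5 and 20 kb were also tried), the minimum of 50 regions, the width classes, the 4 parts of the stretch and the selection alike in both arms were set after seeing values. Named regions are the highest of each 1 Mb piece, the 10 lowest and 10 highest called for induction, up to 5 regions called in each other comparison or else the window with the smallest p, the 3 widest with ties and those at the ends. The region starting at 51488751 is outside this rule and was added after its values were seen. Counting intervals are exact binomial (Clopper-Pearson, 95%), pooled over libraries.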

Additional observations from a re-analysis of the deposited data

Results flagged for a closer look

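Single libraries were compared with the other 3 of the same AIRE state by Dixon's ratio at its 95% critical value, in 146 sets of 4, of which chance flags about 1 in 20. In 5 a library stood apart. In the fourth 1 Mb piece, Control replicate 1 had 111 summed CPM, above the other 3 uninduced libraries, which lay within rounding of each other. Control replicate 2 was high at windows 47007301 (6.74 CPM against 3.73 to 4.02) and 47007351 (6.59 against 3.85 to 4.02). DoxEtop replicate 2 had 4.55 CPM at 47081101 against 0.441 to 0.572, and Dox replicate 2 had 1.10 CPM at 47110251 against 0.373 to 0.396.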

How the results depend on the processing

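With DESeq2 size factors, no filter on low counts and DESeq2's own test, the induction counts of 132 windows and 39 regions stayed within 1.5 times. With limma-voom they were 2 windows (both higher) and 0 regions, with loess offsets 83 (66 lower, 17 higher) and 21, with windows of at least 5 CPM on average 14 of 82 (8 lower, 6 higher) and 6 of 24. Testing 1 window in 3 gave 50 of 337, by its construction. Left-out libraries gave 47 to 177 windows and 11 to 54 regions, where 2.87 to 9.26% of all windows were called. For Dox against Control (16), the count was 7 with 1 window in 3, 1 with DESeq2 (693 windows with an adjusted p), 0 with limma-voom, 9 with loess offsets, 3 at 5 CPM, and 0 to 37 with left-out libraries. For DoxEtop against Etop (45), it was 17, 15, 0, 19, 2 and 0 to 81 in the same order. For Etop against Control it was 0 to 2 with left-out libraries. Windows that reached 129 summed counts both as deposited and with the arms exchanged, a selection chosen after seeing the data, gave 88, 10 and 23 calls, and a median of -0.342 in the dense stretch against 0.064 over the table. The causes of these changes were not tested. Outside the induction comparison, shares over all windows are not given here for the changed settings. With loess offsets the log2 fold change reversed at 47004101 (0.101 for induction, 0.797 for Dox against Control) and at 45471101 (0.174 and 0.074). Dox libraries held 0.360% of counts in the segment with 1 window in 3, against 0.351%. With replicate numbers as a block, the counts were 126 windows, 38 regions, 12 for Dox against Control and 46 for DoxEtop against Etop. Deviations of same-numbered libraries correlated at -0.073 to 0.120 over 6 pairs of groups, 1 of them over 0.1. The labels do not say whether same-numbered libraries share a day or batch, and these values cannot decide it. At window 47004101 the induced libraries held at most 2 counts each, which limits the precision of its fold change.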
